A study of Rattus norvegicus with 9 samples.

Results

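The comparison described here sets the synovium of Lewis rats labelled TZG against that of rats labelled NC, across all genes of the deposited table. The 6 libraries of the comparison, C56, C59 and C61 for NC and G30, G31 and G48 for TZG, were taken from the 9 of the series by treatment label and by the letter that opens each column name. The remaining 3 libraries, M2, M6 and M8, carry the label AIA. They entered the fit through the filter on low counts, the scaling and the shared estimate of the spread. The labels do not spell out NC, AIA or TZG. The series title names a liquid extract, Tianhe Zhuifeng, and rheumatoid arthritis, so TZG is read here as the extract group and NC as the control. Strain and tissue were the same in all groups. Dose, duration, age, sex, the time of sampling, how arthritis was induced, and whether TZG rats had arthritis are not stated. It is not known whether each library is 1 animal, and the p-values therefore cover the spread between libraries, which may be technical. The numbers of G31, G48, M2 and M8 match no sample title, and these columns were placed by their letter alone.

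Synovium is the thin tissue that lines the joint. Its lining layer holds macrophages and fibroblasts that secrete hyaluronan and lubricin into the joint fluid, over a sublining of fibroblasts, vessels, nerves and fat. In inflammatory arthritis the tissue is known to gain leukocytes, to grow by cell division, and to secrete cytokines, chemokines and enzymes that digest matrix. The tissue lies against muscle, cartilage and bone, and a dissected piece can hold some of each. In bulk RNA, fewer cells of a type and less RNA per cell cannot be told apart.

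The 6 libraries held 12536231 to 16402126 counted reads each, so that 3 reads stood for 0.183 to 0.239 CPM, the read count scaled to library size. That range is before the TMM factors, which adjust the scale between libraries and enter all levels given below. 2 libraries stood apart from the others of their group. C61 had the highest summed level of 25 skeletal muscle genes, 36766 CPM against 467 in C56, 2149.6 in C59 and 210.3 to 288 in TZG, and its mitochondrial genes took 14.1% of the reads against 5.71% to 6.75% in the other 5 libraries. G48 had the highest summed level of cartilage genes, 9853 CPM against 498 to 1111 in the other 5, and of bone genes, 46193 CPM against 3119 to 16768. C61 was also low in genes of the lining fibroblast, 8328 CPM against 40942 in C56 and 38744 in C59. The TZG libraries held 18053, 13120 and 14856 CPM of these genes. The endothelial sum of C61 was not low, at 6846 CPM against 6505 in C56 and 4592 in C59. Whether the muscle RNA of C61 lowered its lining level was not tested. Lubricin (Prg4), the defining product of the lining, was nevertheless present in all 6 libraries, at 7303, 6653 and 1269 CPM in NC and 3525, 2568 and 1197 CPM in TZG. Values without C61, without G48 or without both are printed beside the main genes whose fold depended on them. The plot of summed list levels by library shows these departures beside lists that do not share them.

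**Figure D1:**
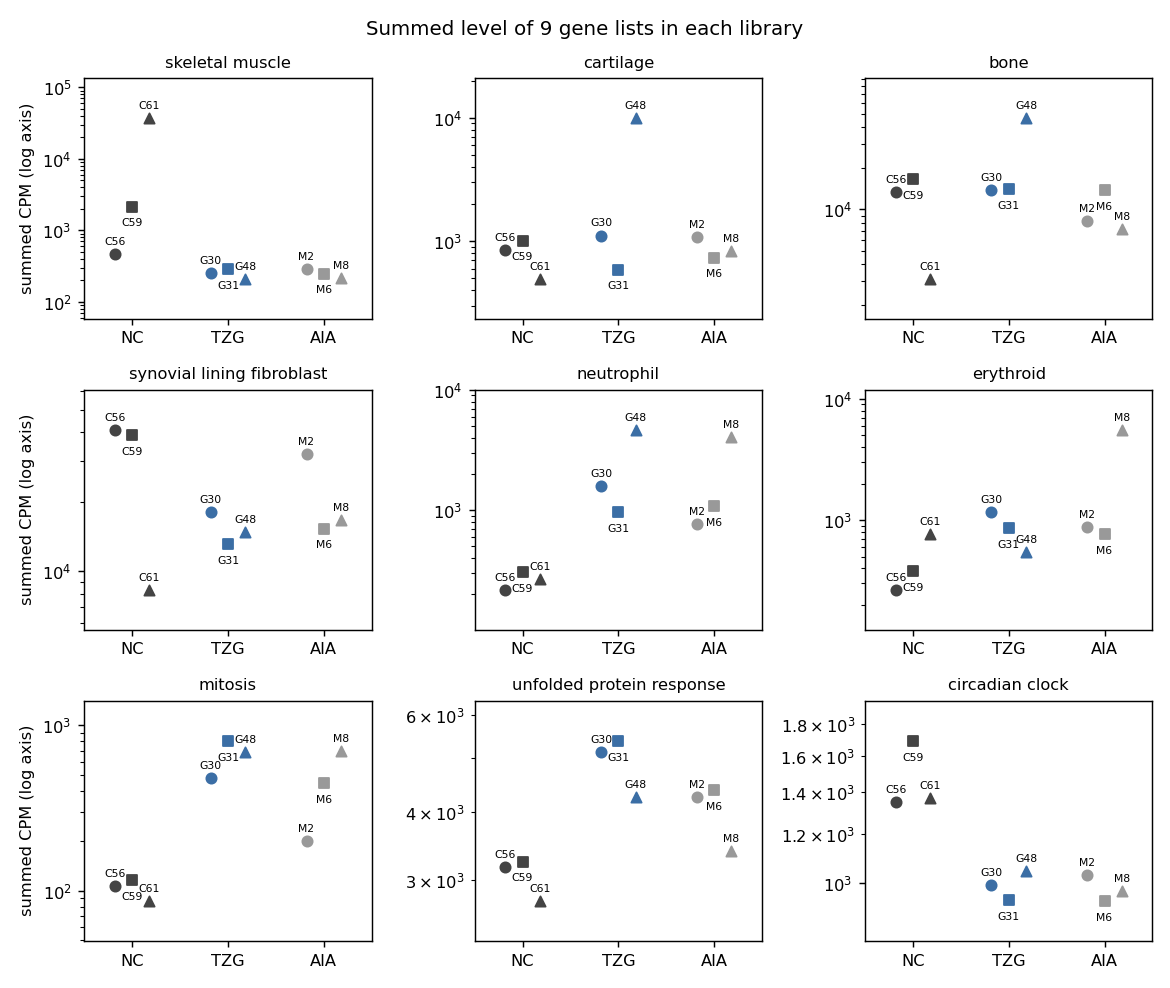
Summed TMM-scaled CPM of the members of 9 gene lists in each library, on log axes that differ between panels; each point is 1 library, labelled by its column name, for NC, TZG and AIA. C61 stands alone for skeletal muscle at 36766 CPM and G48 for cartilage at 9853 CPM and bone at 46193 CPM, while the mitosis list lies at 86.5 to 116 CPM in NC and 477 to 808 CPM in TZG.

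Of 32883 genes in the table, 15068 had enough reads to be tested with edgeR's quasi-likelihood test on the raw counts. At a Benjamini-Hochberg adjusted p under 0.05, 873 genes (5.79% of those tested) were higher in TZG and 682 (4.53%) were lower, 10.3% together. Among them 585 rose and 317 fell by a log2 fold change of at least 1. The median log2 fold change was 1.59 for the genes that rose and -0.96 for those that fell, beside -0.02 over all genes tested. An unadjusted p under 0.05 was found for 4387 genes. The libraries of TZG and NC did not overlap at all 873 genes called higher and at 679 of the 682 called lower, beside 17.4% and 15.2% of all genes tested whose libraries did not overlap in those directions. Protein-coding genes made up 859 of the higher and 669 of the lower calls. Of 228 long intergenic non-coding RNAs tested, 1 rose and 5 fell.

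The count of calls depended on which libraries entered. Leaving out C56 left 150 higher and 185 lower, leaving out C59 left 406 and 451, leaving out C61 left 570 and 613, leaving out G30 left 376 and 211, leaving out G31 left 317 and 143, and leaving out G48 left 587 and 384. Of the 873 higher calls 126, and of the 682 lower calls 94, passed in each of the 9 fits that left out 1 library of any group. In a fit of the 5 columns matched to a sample by number, which holds 1 TZG library, edgeR called no gene in either direction, with 1524 at an unadjusted p under 0.05. In the authors' deposited table, 1106 genes were higher and 591 lower at their q-value under 0.05, and 961 of those were called in the same direction by the test on the raw counts, 56.6% of their calls and 61.8% of the calls made here.

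**Figure D2:**
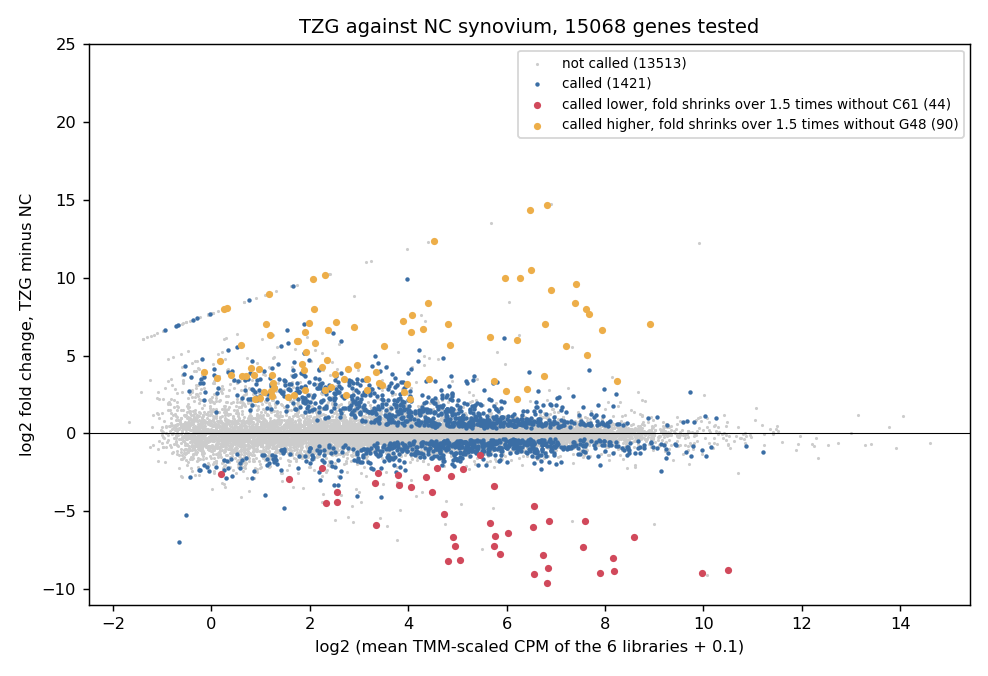
Log2 fold change, TZG minus NC, against the log2 of the mean TMM-scaled CPM of the 6 libraries plus 0.1, for 15068 tested genes; grey points were not called, blue points were called, and red and yellow points were called but lost over 1.5 times of their fold without C61 or without G48. The 44 red genes include Mb, at -9.58, and the 90 yellow genes include Mmp13, at 9.19; the fitted fold change of a gene with no read in NC depends on the prior count.

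Skeletal muscle genes were the lowest of all, and their fall depended on C61. Beside the adjusted p of a named gene, the leave-one-out maximum is the highest adjusted p of the 9 fits that each leave out 1 library; where it exceeds 0.05, the library left out and the number of fits that lost the call follow. Over all genes tested, 7.72% were called without C61 (3.72% higher and 4% lower), 6.36% without G48 (3.84% and 2.51%) and 10.6% without both (5% and 5.58%). A call was marked as depending on a library when its fold shrank by over 1.5 times without it. By that rule 44 of the 682 lower calls (6.45%) depended on C61, and no higher call did. C61 was the highest NC library at all 44, by a median of 17.4 times the mean of C56 and C59. Of the 22 muscle genes tested, 14 were called, all lower, and all 14 depended on C61. Skeletal alpha-actin (Acta1), of the thin filament, was at 18, 455 and 8195 CPM in NC and 0.80, 11.6 and 7.28 CPM in TZG (log2 fold change -8.78 ± 2.22 (SE), adjusted p = 0.042, leave-one-out maximum 0.111 without G30, 8 of 9 lost). The muscle isoform of creatine kinase (Ckm) was at 19, 249 and 5769.9 CPM in NC and 0.20, 7.13 and 4.98 CPM in TZG (log2 fold change -8.94 ± 2.40 (SE), adjusted p = 0.0499, leave-one-out maximum 0.123 without G31, 9 of 9 lost). Parvalbumin (Pvalb), the calcium buffer of fast fibres, was at 6.53, 20.3 and 539 CPM in NC and 0.20, 0.415 and 0.447 CPM in TZG (log2 fold change -9.02 ± 1.93 (SE), adjusted p = 0.0267, leave-one-out maximum 0.0843 without G31, 3 of 9 lost). At all 3 genes C61 was highest, C59 was second, and C56 lay above TZG as well. Myoglobin (Mb), the oxygen store of muscle, gave 0.507, 65.4 and 615 CPM in NC and 0.20, 0.415 and 0.256 CPM in TZG (log2 fold change -9.58 ± 2.20 (SE), adjusted p = 0.0323, leave-one-out maximum 0.0975 without G30, 5 of 9 lost), and here C56 lay much closer to TZG. The median log2 fold change of the 22 muscle genes was -6.95 with all libraries and -3.24 without C61, where 7 of the 22 were called. Without G48 the median was -6.99 and 0 of the 22 were called. Without C61 and G48 together it was -3.37 and 2 were called. With all libraries DESeq2 called 19 of the 22 lower and limma-voom 0. Without C61 the log2 fold changes of Acta1, Ckm, Pvalb and Mb were -5.16, -5.02, -5.20 and -6.78. The other 30 lower genes that depended on C61 lay in no list here. Among them, chosen after their values were seen, were the myosin-binding proteins Mybpc1 and Mybpc2, the myomesins Myom1 and Myom2 and the muscle sodium channel Scn4a. Of the 44, 28 passed again without C61.

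Among the genes that rose, 90 of 873 (10.3%) depended on G48, and 2 lower calls did. G48 was the highest TZG library at all 90, by a median of 3.78 times the mean of G30 and G31. Of these genes 26 lay in a list, with 9 as neutrophil genes, 3 as matrix proteases and 1 each as cartilage, bone and osteoclast genes. By edgeR, only 1 of 21 cartilage genes (4.76%) and 1 of 16 bone genes (6.25%) was called higher, beside 5.79% of all genes tested. DESeq2 called 10 and 8 of them higher, and limma-voom 0 and 1. The count of calls that depended on G48 therefore cannot show the part of cartilage or bone RNA in G48, which was not tested. Eosinophil granule genes (Epx and Prg2, with log2 fold changes of 5.22 and 6.18 without G48) and the transcription factors of granulocyte maturation Gfi1 and Cebpe (3.32 and 3.39 without G48) were also among the 90, outside the lists. Of the 90, 37 passed again without G48. Without C61 and without G48 together, 125 higher calls (14.3%) and 58 lower calls (8.5%) shrank by over 1.5 times, and none turned. The fold held within 1.5 times for 734 higher and 623 lower calls without C61, without G48 and without both. The adjusted p held in each of those 3 fits for 334 and 274.

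**Figure D3:**
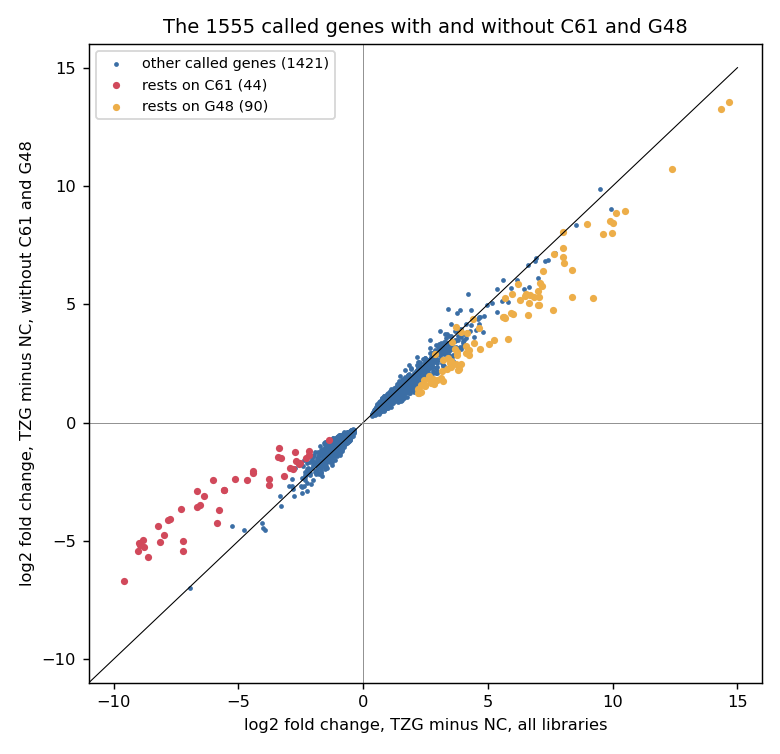
Log2 fold change, TZG minus NC, of the 1555 called genes with all libraries (horizontal axis) and without C61 and G48 (vertical axis); the diagonal marks equal values, red points are the 44 lower genes that depended on C61 and yellow points the 90 higher genes that depended on G48. All points stay on their own side of 0, and the red and most of the yellow points lie nearer to 0 than the diagonal.

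Leaving out C61 and G48 also brought genes into reach: 258 higher and 429 lower genes were called only without both. Members of 46 lists of genes by cell type or pathway were counted next. The lists held 889 genes tested, of which 162 rose and 63 fell, and 41 of the 46 lists had at least 1 call. The plot of called shares by list gives each list beside the shares over all genes.

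**Figure D4:**
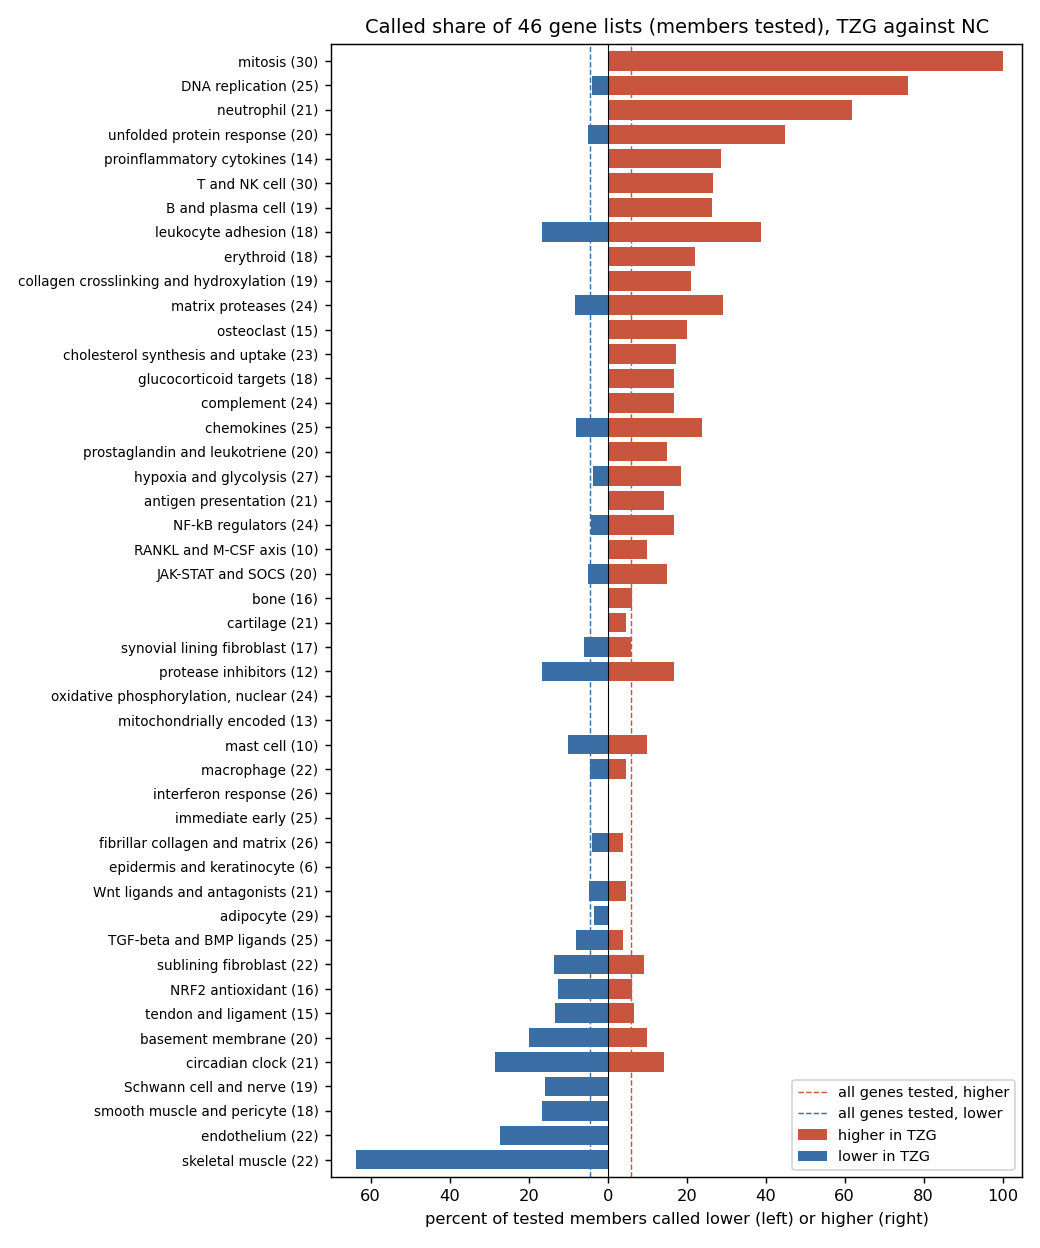
Percent of the tested members of each of 46 gene lists that were called lower (left, blue) or higher (right, red) in TZG, with the number tested in parentheses; dashed lines mark 4.53% and 5.79%, the shares over all genes tested. Mitosis (30 of 30 higher) and DNA replication (19 of 25 higher) head the plot and skeletal muscle (14 of 22 lower) closes it.

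Cell division genes rose together. All 30 genes of the mitosis list were tested and all 30 rose, with a median log2 fold change of 2.77, and 26, 28 and 23 were called without C61, without G48 and without both. Of 25 DNA replication genes 19 rose and 1 fell, with a median of 1.39. Fewer of these were called higher in the smaller fits: 6 without C61, 15 without G48 and 13 without both. The summed level of the mitosis list was 86.5 to 116 CPM in NC and 477 to 808 CPM in TZG, with no overlap. In proliferating cells, mitotic genes are known to be switched on late in the cycle through CCAAT boxes bound by NF-Y and a cell cycle homology region bound by the DREAM and MuvB complexes. Because these members moved together, the 250 bases before the start of 3 of them are printed from RefSeq (GRCr8): the cyclin-dependent kinase that drives entry into mitosis (Cdk1, chr20:19265043-19265292, + strand), the topoisomerase that untangles sister chromatids (Top2a, chr10:84473094-84473343, - strand) and the proliferation marker Ki-67 (Mki67, chr1:199952594-199952843, - strand). Capitals mark CCAAT or its reverse complement ATTGG, and TTTGAA or its reverse complement TTCAAA; in Mki67 the second TTTGAA shares bases with the last ATTGG.
Cdk1: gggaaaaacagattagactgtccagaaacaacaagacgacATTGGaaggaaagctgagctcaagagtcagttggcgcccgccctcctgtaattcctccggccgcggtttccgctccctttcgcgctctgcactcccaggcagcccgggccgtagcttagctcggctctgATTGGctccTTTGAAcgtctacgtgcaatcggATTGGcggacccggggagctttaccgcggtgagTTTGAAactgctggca
Top2a: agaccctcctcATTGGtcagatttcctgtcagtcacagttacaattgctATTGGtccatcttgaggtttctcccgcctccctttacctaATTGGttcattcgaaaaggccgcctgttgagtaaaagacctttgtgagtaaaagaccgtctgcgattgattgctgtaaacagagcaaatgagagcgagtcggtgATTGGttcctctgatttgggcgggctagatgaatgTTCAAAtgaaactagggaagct
Mki67: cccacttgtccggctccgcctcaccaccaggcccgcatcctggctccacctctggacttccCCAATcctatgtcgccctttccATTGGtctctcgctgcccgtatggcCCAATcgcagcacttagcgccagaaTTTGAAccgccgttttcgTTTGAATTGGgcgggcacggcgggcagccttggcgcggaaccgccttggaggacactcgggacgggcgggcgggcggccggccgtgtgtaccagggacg

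Cdk1 held 3 CCAAT boxes and 2 TTTGAA matches, Top2a 4 and 1, and Mki67 4 and 2. Of the 30 mitosis genes 25 had a promoter in RefSeq's table, and 18 of those (72%) held CCAAT on either strand, beside 34.3% of all 27455 promoters and 35.2% of the genes tested. TTTGAA stood in 11 (44%), beside 16% of all promoters and 10.1% of the genes tested. A match is a run of letters in this window and no evidence of binding.

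Cdk1 was at 3.17, 2.57 and 1.85 CPM in NC and 15.3, 26.7 and 22.7 CPM in TZG (log2 fold change 3.08 ± 0.43 (SE), adjusted p = 0.0135, leave-one-out maximum 0.0428). Top2a was at 8.5, 6.98 and 4.76 CPM in NC and 52.8, 82.1 and 84.7 CPM in TZG (log2 fold change 3.43 ± 0.50 (SE), adjusted p = 0.0141, leave-one-out maximum 0.0428). At both genes every TZG library lay above every NC library, and both were called without C61 and G48 together. The spindle checkpoint kinase Ttk was at 1.21, 1.58 and 1.06 CPM in NC and 8.0, 13.6 and 10.4 CPM in TZG (log2 fold change 3.04 ± 0.38 (SE), adjusted p = 0.0132, leave-one-out maximum 0.0428). The kinesin Kif2c, which depolymerises microtubules at centromeres, was at 0.571, 0.724 and 1.15 CPM in NC and 6.13, 13.8 and 11.8 CPM in TZG (log2 fold change 3.71 ± 0.50 (SE), adjusted p = 0.0133, leave-one-out maximum 0.0428). In all 4, G30 was the lowest of the TZG libraries. Mki67 was at 11.5, 13 and 6.62 CPM in NC and 77.4, 109 and 117 CPM in TZG, a log2 fold change of 3.27 (adjusted p = 0.0193, 0.0781 without C61 and G48), where its log2 fold change was 2.93 and the call was lost. The lowest member in fold was Foxm1, the transcription factor of mitotic genes, at 1.44.

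The replication helicase subunit Mcm3 was at 10.02, 9.87 and 10.4 CPM in NC and 34.5, 73.4 and 33.8 CPM in TZG (log2 fold change 2.22 ± 0.36 (SE), adjusted p = 0.0145, leave-one-out maximum 0.0519 without C56, 1 of 9 lost). G31 was here the highest of the 3. The helicase subunit Mcm4 rose by a log2 fold change of 1.44, the nucleotide-making reductase subunit Rrm2 by 3.56, and the sliding clamp Pcna by 0.84. E2f8, a repressor of the E2F family that acts in S phase, was at 0.254, 0.132 and 0.176 CPM in NC and 4.73, 8.72 and 7.67 CPM in TZG (log2 fold change 5.16 ± 0.82 (SE), adjusted p = 0.0143, leave-one-out maximum 0.048). The single replication gene that fell was Cdc45, a helicase cofactor, at 156, 92.6 and 238 CPM in NC and 58.8, 82.1 and 39 CPM in TZG (log2 fold change -1.43 ± 0.36 (SE), adjusted p = 0.0413, leave-one-out maximum 0.111 without G30, 8 of 9 lost); its locus overlaps that of the endothelial junction gene Cldn5, and reads of the pair cannot be told apart where the counting strand is not stated.

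The circadian clock list moved in both directions. In the clock, CLOCK and ARNTL switch on the period, cryptochrome and REV-ERB genes, whose products feed back on them, and DBP, TEF and NFIL3 carry the rhythm to other genes. Of 21 genes tested 6 fell and 3 rose. All 9 were called again without C61 and G48 together, beside 57.3% of all higher calls and 60.4% of all lower calls. Nr1d1, the REV-ERB alpha repressor (chromosome 10, 86683875 to 86690815 in the deposited table), had the smallest adjusted p of any gene, at 146, 198 and 174 CPM in NC and 37.5, 39 and 32.1 CPM in TZG (log2 fold change -2.25 ± 0.16 (SE), adjusted p = 0.00329, leave-one-out maximum 0.0322). Its locus overlaps the end of Thra. The output activator Dbp was at 117, 234 and 195 CPM in NC and 43.8, 42.7 and 66.3 CPM in TZG (log2 fold change -1.84 ± 0.30 (SE), adjusted p = 0.0145, leave-one-out maximum 0.0487). Its relative Tef was at 147, 220.4 and 191 CPM in NC and 100.2, 92 and 92.8 CPM in TZG (log2 fold change -0.97 ± 0.15 (SE), adjusted p = 0.0142, leave-one-out maximum 0.0466). The 3 NC libraries lay above all TZG libraries at each of these genes, and C56 was the lowest of NC at all 3. REV-ERB beta (Nr1d2) fell by 1.09 on the log2 scale, Per3 by 0.91 and Cry2 by 0.66.

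3 clock genes went the other way. Cry1, a repressor of CLOCK and ARNTL, was at 11.5, 10.3 and 12.1 CPM in NC and 19.7, 22.1 and 18.4 CPM in TZG (log2 fold change 0.83 ± 0.13 (SE), adjusted p = 0.0145, leave-one-out maximum 0.048). Nfil3, which competes with DBP for its sites, was at 12.1, 10.1 and 21.3 CPM in NC and 39, 46.6 and 36.6 CPM in TZG (log2 fold change 1.49 ± 0.26 (SE), adjusted p = 0.0165, leave-one-out maximum 0.0574 without C56, 1 of 9 lost). Clock itself was at 35.3, 32.8 and 40.9 CPM in NC and 54.7, 57.6 and 54.1 CPM in TZG (log2 fold change 0.61 ± 0.14 (SE), adjusted p = 0.0324, leave-one-out maximum 0.095 without C56, 6 of 9 lost). Arntl, Per2 and Hlf did not pass, with log2 fold changes of 0.43, -0.25 and -0.36. The hour at which each rat was sampled is not given, and its part in these differences was not tested.

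**Figure D5:**
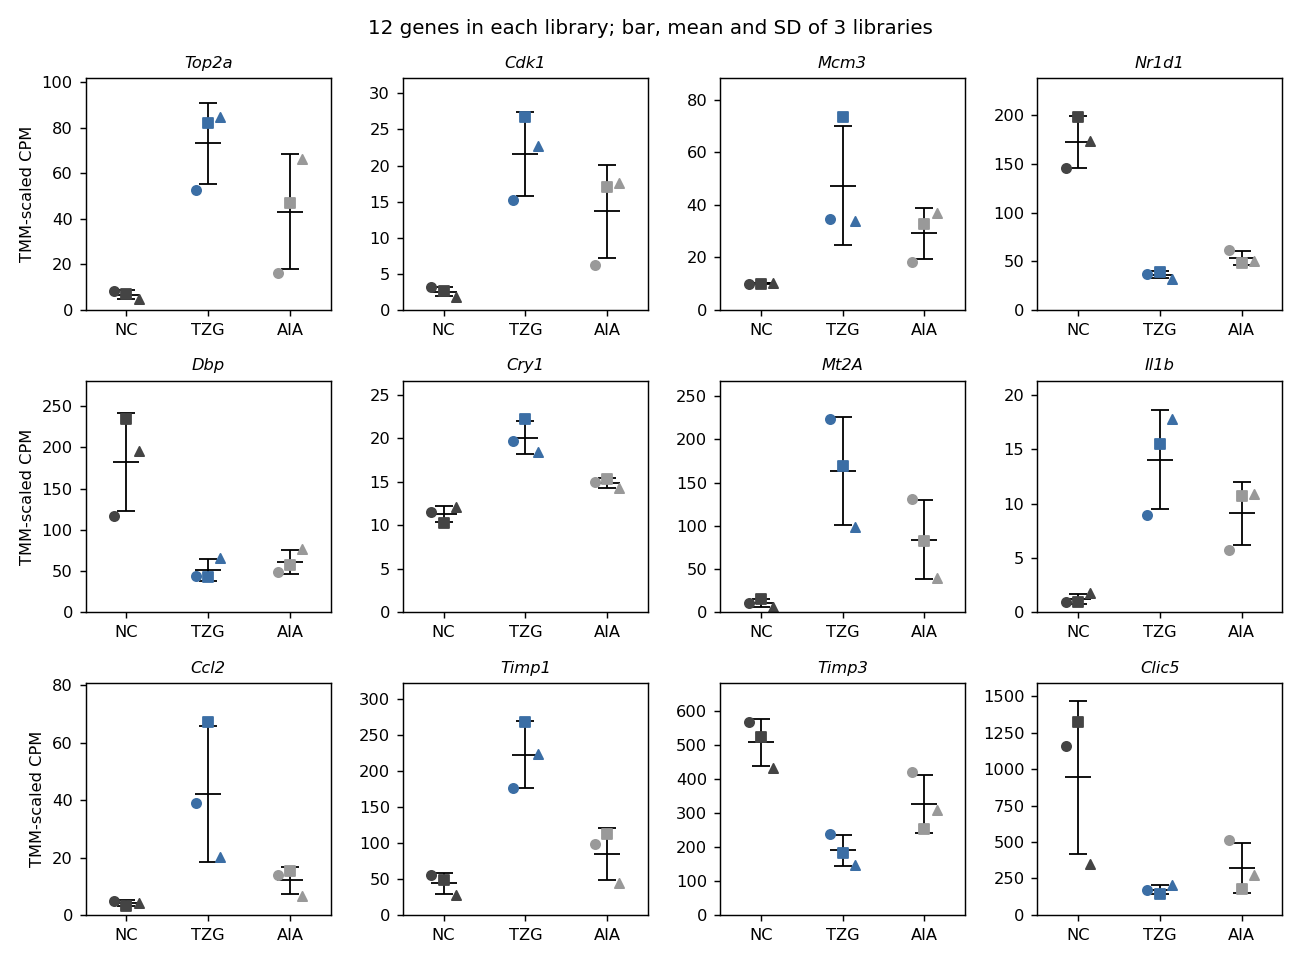
TMM-scaled CPM of 12 genes in each library of NC, TZG and AIA; points are libraries (circle, square and triangle in the order C56, C59, C61; G30, G31, G48; M2, M6, M8), and the bar and whiskers are the mean and SD of 3 libraries. No TZG library overlaps an NC library at any of the 12: Nr1d1, Dbp, Timp3 and Clic5 are lower in TZG and the other genes higher, with Top2a at 4.76 to 8.50 CPM in NC and 52.8 to 84.7 CPM in TZG.

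Metallothioneins rose in every TZG library. These small proteins bind zinc and copper and are induced by metals, glucocorticoids and inflammatory signals through a metal response element with the core TGCNCNC. Mt2A (chromosome 19, 11307967 to 11308740 in the deposited table) was at 10.7, 15 and 6.17 CPM in NC and 223, 169 and 98.9 CPM in TZG (log2 fold change 3.93 ± 0.53 (SE), adjusted p = 0.0133, leave-one-out maximum 0.0428). A row named Mt1 was at 5.77, 7.24 and 8.12 CPM in NC and 86.1, 52 and 60.4 CPM in TZG (log2 fold change 3.23 ± 0.28 (SE), adjusted p = 0.00993, leave-one-out maximum 0.0426). Mt1m was at 4.25, 7.64 and 5.73 CPM in NC and 106, 69.3 and 48.2 CPM in TZG, a log2 fold change of 3.66 with adjusted p = 0.0133. The NC libraries held at most 15 CPM of any of the 3 rows and the TZG libraries at least 48.2. The row named Mt1 lies inside Dclre1c on chromosome 17 while RefSeq places Mt1 on chromosome 19, so reads may be split among near-identical copies and the row's identity is uncertain. The 250 bases before the start of Mt2A (RefSeq, GRCr8, chr19:10838709-10838958, - strand) are printed because the gene is the highest of the 3, with matches of TGCNCNC or its reverse complement GNGNGCA in capitals.
Mt2A: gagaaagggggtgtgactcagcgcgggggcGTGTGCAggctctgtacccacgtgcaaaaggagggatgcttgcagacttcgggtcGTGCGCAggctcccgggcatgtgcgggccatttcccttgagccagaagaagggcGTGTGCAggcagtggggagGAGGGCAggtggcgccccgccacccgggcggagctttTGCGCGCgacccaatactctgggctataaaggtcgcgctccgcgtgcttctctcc

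The window held 5 matches, and 43.9% of all 27455 promoters held at least 1 and 4.37% at least 3. Among the genes tested these shares were 53.8% and 6.88%. Of the 18 glucocorticoid targets tested, Mt1, Mt2A and glutamine synthetase (Glul) rose, with a list median of 0.00. Fkbp5, a chaperone induced by glucocorticoids, was at 49.1, 55.6 and 42.3 CPM in NC and 149, 104 and 66.4 CPM in TZG and did not pass (adjusted p = 0.0514), though it did without C61 and G48 (0.0383). Zbtb16, another such target, was at 9.9, 10.5 and 12 CPM in NC and 11.5, 10.9 and 4.98 CPM in TZG (log2 fold change -0.24, adjusted p = 0.663), and 0.14 without C61 and G48.

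Several inflammatory mediators that were low in NC rose in TZG. Of 14 proinflammatory cytokines and their inhibitor tested, 4 rose, with a median log2 fold change of 1.04. Interleukin-1 beta (Il1b, chromosome 3, 121876263 to 121882726) was at 0.951, 0.987 and 1.76 CPM in NC and 8.93, 15.5 and 17.8 CPM in TZG (log2 fold change 3.52 ± 0.41 (SE), adjusted p = 0.012, leave-one-out maximum 0.0428). Its receptor antagonist Il1rn was at 1.71, 1.18 and 1.32 CPM in NC and 22.5, 29.2 and 53.3 CPM in TZG (log2 fold change 4.62 ± 0.51 (SE), adjusted p = 0.012, leave-one-out maximum 0.0428). Interleukin-6 (Il6) was at 0.825, 0.527 and 0 CPM in NC and 8.46, 11.1 and 5.88 CPM in TZG (log2 fold change 4.14 ± 1.03 (SE), adjusted p = 0.0405, leave-one-out maximum 0.103 without G31, 8 of 9 lost). None of these 3 genes reached 2 CPM in an NC library, and every TZG library lay above 5 CPM. Tumour necrosis factor (Tnf) was at 0.381, 0.592 and 0.353 CPM in NC and 1.07, 0.623 and 1.09 CPM in TZG and did not pass (log2 fold change 1.04, adjusted p = 0.189).

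Of 25 chemokines 6 rose and 2 fell. The monocyte attractant Ccl2 was at 4.95, 2.96 and 4.32 CPM in NC and 38.9, 67.3 and 20.2 CPM in TZG (log2 fold change 3.37 ± 0.50 (SE), adjusted p = 0.0142, leave-one-out maximum 0.0434). Its neighbour Ccl7 was at 4.82, 5.33 and 8.03 CPM in NC and 32.1, 53 and 66.1 CPM in TZG (log2 fold change 3.06 ± 0.44 (SE), adjusted p = 0.0141, leave-one-out maximum 0.0447). G48 was the lowest TZG library for Ccl2 and the highest for Ccl7. The neutrophil attractant Cxcl1 rose by a log2 fold change of 2.67 and Cxcl14 by 2.88. Ccl20 had no read in NC and 12, 3.74 and 2.75 CPM in TZG, at least 86.8-fold higher against 3 reads over the group (adjusted p = 0.0471, leave-one-out maximum 0.104 without C56, 8 of 9 lost). Platelet basic protein (Ppbp) had 1 read in NC and was at 1.93, 2.49 and 20.4 CPM in TZG with 385 reads, a ratio of 361 (95% interval for counting error, 64.4 to 14300; adjusted p = 0.0349, leave-one-out maximum 0.105 without C56, 6 of 9 lost). G48 was its highest library, and without G48 the ratio was 93.4 (16.2 to 3740) and the call was lost (adjusted p = 0.0571). The fractalkine gene Cx3cl1 fell by 0.85 on the log2 scale (leave-one-out maximum 0.0952 without G31, 6 of 9 lost). The stromal chemokine Cxcl12 fell by 1.01 (leave-one-out maximum 0.116 without G48, 8 of 9 lost), and its fold was -0.59 without C61 and G48.

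Of 24 NF-kB regulators 4 rose and 1 fell, with a median of 0.36. Nfkbiz, an inducible nuclear partner of NF-kB, was at 9.96, 10.1 and 7.85 CPM in NC and 29.7, 38.5 and 41.1 CPM in TZG (log2 fold change 1.96 ± 0.25 (SE), adjusted p = 0.0133, leave-one-out maximum 0.0428). Birc3, an inhibitor of apoptosis induced by NF-kB, rose by 1.08 (leave-one-out maximum 0.0496). The subunit gene Rela fell by 0.50 (leave-one-out maximum 0.112 without G30, 5 of 9 lost). The cytokine feedback inhibitor Socs3 was at 11.2, 8.62 and 15.3 CPM in NC and 57.1, 50.4 and 50.02 CPM in TZG (log2 fold change 2.17 ± 0.39 (SE), adjusted p = 0.0178, leave-one-out maximum 0.0618 without C56, 1 of 9 lost). Prostaglandin synthase 2 (Ptgs2), the inducible enzyme of prostaglandin synthesis, was at 1.08, 1.78 and 0.794 CPM in NC and 4.53, 14.9 and 5.11 CPM in TZG (log2 fold change 2.73 ± 0.55 (SE), adjusted p = 0.0232, leave-one-out maximum 0.0779 without C56, 3 of 9 lost). G31 was the highest library for Ptgs2, as for Cxcl1. The prostaglandin E receptor Ptger4 rose by 1.29. The receptor of leukaemia inhibitory factor, Lifr, fell by 1.04 (leave-one-out maximum 0.0871 without G31, 5 of 9 lost). No gene among 26 interferon response or 25 immediate early genes was called by edgeR, where 4 and 7 had an unadjusted p under 0.05; DESeq2 called 2 and 5, and limma-voom called none.

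Most of the neutrophil genes tested rose, and the size of their rise was smaller without G48. Of 21 neutrophil genes 13 rose; the list median was 7.66, or 6.08 with the 5 members that had no read in NC set at their lower bound. The summed neutrophil level was 218 to 304 CPM in NC and 1595, 969 and 4674 CPM in TZG. The growth factor receptor of neutrophils, Csf3r, was at 1.33, 1.71 and 2.21 CPM in NC and 36.7, 32.9 and 81.1 CPM in TZG (log2 fold change 4.86 ± 0.64 (SE), adjusted p = 0.0133, leave-one-out maximum 0.0428). The calprotectin subunit S100a9 was at 2.22, 0.987 and 2.91 CPM in NC and 288, 156 and 779.9 CPM in TZG (log2 fold change 7.66 ± 1.23 (SE), adjusted p = 0.0145, leave-one-out maximum 0.0519 without C56, 1 of 9 lost). The collagenase of neutrophil granules, Mmp8, was at 0.254, 0 and 0.176 CPM in NC and 51.7, 41.9 and 369.6 CPM in TZG (log2 fold change 10.00 ± 1.87 (SE), adjusted p = 0.0193, leave-one-out maximum 0.0663 without C56, 2 of 9 lost). G48 was highest at all 3. G30 and G31 also lay above every NC library, as at all 873 genes called higher. Without G48 the log2 fold changes were 4.33, 6.79 and 8.29. Without C61 and G48 together, 3 of the 21 were called: Csf3r, the iron-binding lipocalin Lcn2 (log2 fold change 3.66, and 2.72 without G48) and the oxidase subunit Ncf4. The alpha-defensins Np4 and Defa5, antimicrobial peptides of neutrophil granules, had no read in NC and were at 177, 26 and 470.3 and 141, 20.6 and 372 CPM in TZG, at least 3170-fold and 2510-fold higher against 3 reads over the group (adjusted p = 0.0348 and 0.0351, each lost in 6 of 9 leave-one-out fits). Without G48, their highest library, they were at least 1430-fold and 1140-fold higher and neither call held (adjusted p = 0.0676 and 0.0678). They belong to a multigene family of near-identical copies, so reads may be shared among them. The ficolin Fcnb, a lectin of granulocytes, was at 0.634, 1.97 and 2.65 CPM in NC and 128, 42.4 and 193 CPM in TZG (log2 fold change 6.14 ± 1.03 (SE), adjusted p = 0.0153, leave-one-out maximum 0.0543 without C56, 1 of 9 lost).

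Of 30 T and NK cell genes 8 rose, with a median of 2.35. Called higher were 8 without C61, 5 without G48 and 4 without both. Cd8a, the co-receptor of cytotoxic T cells and of some rat macrophages, was at 0.444, 0.79 and 0.617 CPM in NC and 13.1, 25.2 and 19.4 CPM in TZG (log2 fold change 4.95 ± 0.48 (SE), adjusted p = 0.0106, leave-one-out maximum 0.0426). Cd2, an adhesion receptor of T cells, was at 0.507, 0.395 and 0.353 CPM in NC and 5.27, 6.37 and 6.13 CPM in TZG (log2 fold change 3.78 ± 0.44 (SE), adjusted p = 0.012, leave-one-out maximum 0.0428). Both passed with any library left out. Of 19 B and plasma cell genes 5 rose, and 2, 3 and 2 were called higher without C61, without G48 and without both. The B cell receptor inhibitor Cd22 was at 2.73, 4.28 and 1.41 CPM in NC and 13.7, 11 and 11.4 CPM in TZG (log2 fold change 2.08 ± 0.41 (SE), adjusted p = 0.0218, leave-one-out maximum 0.0731 without C56, 3 of 9 lost). The immunoglobulin joining chain (Jchain), secreted by plasma cells, was at 0.254, 0.658 and 0.176 CPM in NC and 31.4, 7.54 and 78.4 CPM in TZG, and its log2 fold change of 6.67 became 5.67 without G48.

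Of 22 macrophage genes, 1 rose and 1 fell, 4.55% each, beside 5.79% and 4.53% of all genes tested. The list therefore did not stand out by its calls. Its median was 0.35, and 0.02 without C61. The high-affinity IgG receptor Fcgr1a was at 17.4, 21.7 and 7.76 CPM in NC and 45.7, 63.5 and 42.2 CPM in TZG (log2 fold change 1.68 ± 0.35 (SE), adjusted p = 0.0249, leave-one-out maximum 0.0735 without G31, 3 of 9 lost). The efferocytosis receptor Mertk was at 52.1, 45 and 41.5 CPM in NC and 33.4, 33.8 and 33.2 CPM in TZG (log2 fold change -0.47 ± 0.12 (SE), adjusted p = 0.0435, leave-one-out maximum 0.126 without C56, 8 of 9 lost). The summed macrophage level was 2323 and 3138 CPM in C56 and C59, 776 in C61, and 2273 to 2667 in TZG, so the groups overlapped. The integrin Itgax, of dendritic cells and activated macrophages, was at 4.82, 3.62 and 4.41 CPM in NC and 28.6, 19.4 and 37.2 CPM in TZG (log2 fold change 2.73 ± 0.33 (SE), adjusted p = 0.0129, leave-one-out maximum 0.0426). The costimulatory ligand Cd80 was at 0.317, 0.527 and 0.617 CPM in NC and 4.2, 3.88 and 4.15 CPM in TZG (log2 fold change 3.06 ± 0.35 (SE), adjusted p = 0.012, leave-one-out maximum 0.0428). Neither gene is a member of the macrophage list. Of 21 antigen presentation genes 3 rose, among them the ubiquitin-like modifier Ubd, at 0.19, 0.197 and 0.353 CPM in NC and 4.8, 3.53 and 9.58 CPM in TZG (log2 fold change 4.59 ± 0.62 (SE), adjusted p = 0.0133, leave-one-out maximum 0.0428). Of 24 complement genes 4 rose. Properdin (Cfp), which stabilises the alternative pathway convertase, was at 8.06, 8.62 and 10.1 CPM in NC and 40.5, 41 and 54.5 CPM in TZG (log2 fold change 2.35 ± 0.23 (SE), adjusted p = 0.0106, leave-one-out maximum 0.0426). Complement component C3 was at 10.7, 12.8 and 11.1 CPM in NC and 143, 89.1 and 921 CPM in TZG (log2 fold change 5.06 ± 0.89 (SE), adjusted p = 0.0176, leave-one-out maximum 0.063 without C56, 1 of 9 lost), and its fold of 5.06 became 3.34 without G48.

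Of 18 leukocyte adhesion genes 7 rose and 3 fell. P-selectin (Selp), which activated endothelium and platelets display, was at 71.6, 42.3 and 53 CPM in NC and 142, 322 and 137 CPM in TZG (log2 fold change 1.85 ± 0.37 (SE), adjusted p = 0.0232, leave-one-out maximum 0.0642 without C59, 3 of 9 lost). The integrin subunits Itgb7, Itga4, Itgal and Itgb2 rose as well, and the junction genes Jam3 and Icam2 fell with Podxl. Of 18 erythroid genes 4 rose, none of which was called without C61 or without both, and Slc4a1 alone without G48. The red cell anion exchanger Slc4a1 was at 0.634, 0.724 and 1.32 CPM in NC and 39.3, 30.03 and 38.5 CPM in TZG (log2 fold change 5.36 ± 1.13 (SE), adjusted p = 0.0259, leave-one-out maximum 0.0838 without C56, 5 of 9 lost), beside 34.3, 26.1 and 343 CPM in AIA.

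Some enzymes that cut matrix rose. Of 24 matrix proteases 7 rose and 2 fell, and 3, 7 and 2 were called higher without C61, without G48 and without both. The collagenase Mmp13 was at 0.19, 0.79 and 0.176 CPM in NC and 34, 3.46 and 676 CPM in TZG (log2 fold change 9.19 ± 2.17 (SE), adjusted p = 0.0345, leave-one-out maximum 0.105 without C56, 6 of 9 lost). The gelatinase Mmp9 was at 1.46, 0.724 and 0.794 CPM in NC and 61.6, 25.7 and 919 CPM in TZG (log2 fold change 8.37 ± 1.84 (SE), adjusted p = 0.0285, leave-one-out maximum 0.0862 without C56, 3 of 9 lost). At both genes G48 exceeded the other TZG libraries by more than 10 times, and without it the log2 fold changes were 5.54 and 5.43. The urokinase Plau, which activates plasminogen, did not share this: it was at 74.5, 61 and 67 CPM in NC and 131, 120.1 and 107 CPM in TZG (log2 fold change 0.82 ± 0.12 (SE), adjusted p = 0.0142, leave-one-out maximum 0.0431). The stromelysin Mmp3 was at 59.7, 63.5 and 5.29 CPM in NC and 235, 279.8 and 1049.8 CPM in TZG and did not pass (log2 fold change 3.60, adjusted p = 0.0637), with C61 the lowest and G48 the highest library. The membrane-type protease Mmp15 fell by 0.97 on the log2 scale (leave-one-out maximum 0.0752 without G31, 4 of 9 lost).

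The protease inhibitors split. Timp1, the inducible inhibitor of metalloproteinases, was at 55.1, 48.6 and 27.4 CPM in NC and 176, 268 and 224 CPM in TZG (log2 fold change 2.35 ± 0.39 (SE), adjusted p = 0.015, leave-one-out maximum 0.0473). Timp3, the inhibitor bound to matrix, was at 567, 522 and 431 CPM in NC and 239, 183 and 148 CPM in TZG (log2 fold change -1.41 ± 0.24 (SE), adjusted p = 0.0156, leave-one-out maximum 0.055 without G31, 2 of 9 lost). Every TZG library thus lay above NC at Timp1 and below NC at Timp3. Each locus lies within or overlaps a synapsin gene, Syn1 for Timp1 and Syn3 for Timp3. The leukocyte protease inhibitor Slpi was at 0.634, 1.12 and 1.59 CPM in NC and 35, 32.1 and 102 CPM in TZG (log2 fold change 5.69 ± 0.65 (SE), adjusted p = 0.012, leave-one-out maximum 0.0426), and its log2 fold change was 4.95 without G48. Cystatin C (Cst3), an inhibitor of cathepsins, was at 2437, 2486 and 2243 CPM in NC and 1367, 990.2 and 1655 CPM in TZG (log2 fold change -0.84 ± 0.21 (SE), adjusted p = 0.0405, leave-one-out maximum 0.104 without G30, 7 of 9 lost).

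Of 19 genes of collagen crosslinking and hydroxylation 4 rose, and all 19 had a positive log2 fold change, with a median of 0.47; without C61 and G48 none of the 4 was called again. Lysyl oxidase (Lox), which crosslinks collagen and elastin, was at 91, 116 and 54.7 CPM in NC and 467, 509.7 and 561 CPM in TZG (log2 fold change 2.55 ± 0.46 (SE), adjusted p = 0.0181, leave-one-out maximum 0.0618 without C56, 1 of 9 lost). Its fold without C61 and G48 was 2.24 (adjusted p = 0.0542), so the value stayed while the call did not. The collagen chaperone Serpinh1 rose by 0.99. Of 26 fibrillar collagens and matrix genes 1 rose and 1 fell, 3.85% each, beside 5.79% and 4.53% of all genes tested. Col12a1 rose, at 69.3, 51.5 and 41.9 CPM in NC and 205, 369 and 1090.5 CPM in TZG (log2 fold change 3.35, and 2.41 without G48, leave-one-out maximum 0.068 without C56, 4 of 9 lost). Elastin (Eln) fell, at 895, 532 and 766 CPM in NC and 389, 444 and 479.5 CPM in TZG (leave-one-out maximum 0.139 without G30, 8 of 9 lost). The median of that list was 0.95 with all libraries and 0.00 without C61 and G48.

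Of 20 basement membrane genes 4 fell and 2 rose, and 6 were called lower without C61 and G48. The collagen IV chain Col4a5 was at 41.8, 37.3 and 32.5 CPM in NC and 12.6, 11.5 and 15.2 CPM in TZG (log2 fold change -1.51 ± 0.17 (SE), adjusted p = 0.012, leave-one-out maximum 0.0428). The chains Col4a3 and Col4a4, which assemble with it, fell by 1.3 and 1.01 on the log2 scale. Laminin beta 2 (Lamb2) was at 1276, 1188 and 857 CPM in NC and 544, 481 and 450.2 CPM in TZG (log2 fold change -1.17 ± 0.22 (SE), adjusted p = 0.0193, leave-one-out maximum 0.0644 without C56, 3 of 9 lost). In contrast laminin beta 1 (Lamb1) rose by 0.69 (leave-one-out maximum 0.128 without C56, 7 of 9 lost). Lama1 had 2 reads in NC and was at 1.33, 3.46 and 18.1 CPM in TZG with 353 reads, a ratio of 166 (95% interval for counting error, 45.5 to 1370, adjusted p = 0.0255, leave-one-out maximum 0.0805 without C56, 3 of 9 lost). G48 was again highest, and without it the ratio was 50.3 (13.4 to 423; adjusted p = 0.0375).

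The median folds of the cartilage, bone and osteoclast lists were smaller without G48. The genes that edgeR called in them lay above NC in G30 and G31 too, as did all 873 genes called higher, so this does not set them apart. DESeq2 called 10, 8 and 7 genes of these lists higher, and limma-voom 0, 1 and 0. The calls that follow are those of edgeR. Of 21 cartilage genes 1 was called, aggrecan (Acan), the large proteoglycan of cartilage, at 0.507, 4.28 and 0 CPM in NC and 64.5, 82.6 and 511 CPM in TZG (log2 fold change 7.04 ± 1.45 (SE), adjusted p = 0.0242, leave-one-out maximum 0.079 without C56, 1 of 9 lost), and its log2 fold change was 5.47 without G48. Type II collagen (Col2a1), the main collagen of cartilage, was at 0.317, 0.197 and 0.706 CPM in NC and 358, 1.04 and 5414 CPM in TZG, and did not pass (adjusted p = 0.0524). G31 thus had Acan in the same range as G30 but almost no Col2a1. The cartilage median fell from 4.75 to 1.43 without G48. Of 16 bone genes 1 was called, osteopontin (Spp1), a matrix protein of bone and activated macrophages, at 3.93, 7.04 and 3.62 CPM in NC and 134, 228 and 1086 CPM in TZG (log2 fold change 6.62 ± 1.17 (SE), adjusted p = 0.0176, leave-one-out maximum 0.064 without C56, 1 of 9 lost), and its log2 fold change was 5.22 without G48. Bone sialoprotein (Ibsp) had no read in NC and 44.5, 0.554 and 673 CPM in TZG and did not pass (adjusted p = 0.0892). The bone median was 2.65, and 0.31 without G48. Of 15 osteoclast genes 3 rose, and the median of 1.97 became 0.49 without G48. The osteoclast-associated receptor Oscar was at 0.127, 0.197 and 0.265 CPM in NC and 7.86, 9.62 and 18.6 CPM in TZG (log2 fold change 5.92 ± 0.78 (SE), adjusted p = 0.0133, leave-one-out maximum 0.0428). G48 was its highest library too, and its log2 fold change was 5.46 without G48. Tartrate-resistant acid phosphatase (Acp5) was at 22.5, 38.3 and 43.8 CPM in NC and 109, 42.8 and 651 CPM in TZG and did not pass (adjusted p = 0.0657). Its log2 fold change of 2.94 became 1.13 without G48.

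Genes of the lining fibroblast had a median log2 fold change of -0.84, and more of them were called without C61 than with it. Of 17 lining genes 1 fell and 1 rose with all libraries, 5.88% each, beside 4.53% and 5.79% of all genes tested. Without C61, and again without C61 and G48, 5 were called lower. Clic5, a chloride channel protein of the lining, was at 1159.6, 1325 and 346 CPM in NC and 173, 143 and 207 CPM in TZG (log2 fold change -2.44 ± 0.54 (SE), adjusted p = 0.029, leave-one-out maximum 0.0929 without G31, 5 of 9 lost). The serine protease Htra4 was at 1342, 1427 and 310.5 CPM in NC and 412, 251 and 268 CPM in TZG, a log2 fold change of -1.72 (adjusted p = 0.0817), or -2.06 without C61 and G48 (0.0311). The complement regulator Cd55 was at 171, 279 and 32.2 CPM in NC and 53.9, 42.1 and 68.9 CPM in TZG, a log2 fold change of -1.55 (adjusted p = 0.155), or -2.22 without both (0.0298). At all 3 genes C61 lay far below C56 and C59 and nearer to TZG. Hyaluronan synthase 2 (Has2) rose, at 21.4, 10.7 and 3.62 CPM in NC and 30.7, 140.1 and 73.8 CPM in TZG (log2 fold change 2.76 ± 0.72 (SE), adjusted p = 0.0455, leave-one-out maximum 0.124 without G31, 9 of 9 lost). Of 22 sublining fibroblast genes 2 rose and 3 fell, with a median log2 fold change of 0.38, or -0.32 without G48. The 2 that rose were C3 and Sfrp1, and the folds of both depended on G48. Dermatopontin (Dpt) was at 505, 469.8 and 396 CPM in NC and 262, 225 and 155 CPM in TZG (log2 fold change -1.09 ± 0.21 (SE), adjusted p = 0.0209, leave-one-out maximum 0.0686 without C56, 2 of 9 lost). Cd34, a marker of sublining fibroblasts and vessels, fell by 0.68 on the log2 scale (leave-one-out maximum 0.106 without G31, 7 of 9 lost). Of 15 tendon and ligament genes 1 rose and 2 fell, with a median of 1.06, or -0.92 without G48. The cartilage intermediate layer protein Cilp, counted with them, was at 215, 153 and 77.8 CPM in NC and 57, 24.5 and 40.2 CPM in TZG (log2 fold change -1.87 ± 0.39 (SE), adjusted p = 0.0255, leave-one-out maximum 0.0717 without G31, 4 of 9 lost). Among signalling ligands, bone morphogenetic protein 6 (Bmp6) was at 21.4, 21.6 and 27.3 CPM in NC and 5.13, 4.64 and 9.77 CPM in TZG (log2 fold change -1.84 ± 0.28 (SE), adjusted p = 0.0142, leave-one-out maximum 0.0428). Wnt11 fell by 1.79 on the log2 scale (leave-one-out maximum 0.107 without C56, 7 of 9 lost). The Wnt antagonist Sfrp1 rose by 2.84 (adjusted p = 0.0468, leave-one-out maximum 0.112 without C61, 7 of 9 lost). Without G48 its log2 fold change was 1.90 and the call was lost (adjusted p = 0.104).

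Some vessel, smooth muscle and nerve genes fell by small amounts, and most members of these lists did not pass. Of 22 endothelial genes 6 fell, with a median of -0.48, and 1 was called without C61, without G48 or without both. Endomucin (Emcn), a sialoglycoprotein of venous endothelium, was at 146, 115 and 177 CPM in NC and 68.6, 65.7 and 63.1 CPM in TZG (log2 fold change -1.15 ± 0.16 (SE), adjusted p = 0.0133, leave-one-out maximum 0.0428). VE-cadherin (Cdh5), the endothelial junction protein, was at 571, 424 and 681 CPM in NC and 317, 333 and 334 CPM in TZG (log2 fold change -0.77 ± 0.17 (SE), adjusted p = 0.0306, leave-one-out maximum 0.0908 without G30, 7 of 9 lost). C61 was the highest NC library at both. Of 18 smooth muscle and pericyte genes 3 fell, among them myosin light chain kinase (Mylk), at 623, 435 and 533 CPM in NC and 309, 295 and 236 CPM in TZG (log2 fold change -0.92 ± 0.18 (SE), adjusted p = 0.02, leave-one-out maximum 0.0663 without C56, 2 of 9 lost). Of 19 Schwann cell and nerve genes 3 fell, and the same number was called without C61 and G48. Periaxin (Prx), of the myelin sheath, was at 46.6, 43 and 58.7 CPM in NC and 26.1, 24 and 20.6 CPM in TZG (log2 fold change -1.07 ± 0.17 (SE), adjusted p = 0.0143, leave-one-out maximum 0.0444). The glial sodium channel Scn7a was at 28.4, 23.8 and 22.5 CPM in NC and 12, 9.69 and 11.6 CPM in TZG (log2 fold change -1.16 ± 0.19 (SE), adjusted p = 0.0145, leave-one-out maximum 0.0481). Of 29 adipocyte genes 1 fell (3.45%, beside 4.53% of all genes tested), malic enzyme Me1 (leave-one-out maximum 0.0982 without G31, 5 of 9 lost). Adiponectin (Adipoq) was at 697, 1450.1 and 2454 CPM in NC and 1166, 1006 and 258 CPM in TZG, with overlapping groups (log2 fold change -0.92, adjusted p = 0.331), or 0.02 without C61 and G48. The summed adipocyte level ranged from 11560 to 39618 CPM in NC and from 6422 to 23425 CPM in TZG.

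Secretory and metabolic genes rose in part. Of 20 genes of the unfolded protein response, which matches folding capacity in the endoplasmic reticulum to its load, 9 rose and 1 fell. Called higher were 4 without C61, 9 without G48 and 10 without both. The chaperone cofactor Sdf2l1 was at 14.5, 12.8 and 8.91 CPM in NC and 33.1, 31.6 and 29.6 CPM in TZG (log2 fold change 1.37 ± 0.21 (SE), adjusted p = 0.0143, leave-one-out maximum 0.0436). The main chaperone Hspa5 was at 375, 370.5 and 307 CPM in NC and 865, 757 and 530.1 CPM in TZG (log2 fold change 1.03 ± 0.23 (SE), adjusted p = 0.028, leave-one-out maximum 0.0839 without G30, 5 of 9 lost). The stress-induced transcription factor Ddit3 moved against them, at 26.6, 31.9 and 41.5 CPM in NC and 15.4, 17.4 and 15.4 CPM in TZG (log2 fold change -1.05 ± 0.21 (SE), adjusted p = 0.0228, leave-one-out maximum 0.0653 without G30, 3 of 9 lost). Its locus overlaps Mars. Of 23 genes of cholesterol synthesis and uptake 4 rose, among them Cyp51, Idi1 and Mvd. The sterol demethylase Cyp51 was at 36.9, 29.4 and 34 CPM in NC and 60.6, 64.1 and 52.9 CPM in TZG (log2 fold change 0.83 ± 0.12 (SE), adjusted p = 0.0142, leave-one-out maximum 0.0431).

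Of 27 hypoxia and glycolysis genes 5 rose and 1 fell. Without C61 and G48, 8 were higher, of which 3 were also called with all libraries. The hypoxia-inducible factor Hif1a was at 173, 166 and 125 CPM in NC and 276, 327 and 427 CPM in TZG (log2 fold change 1.15 ± 0.23 (SE), adjusted p = 0.0228, leave-one-out maximum 0.0618 without C56, 3 of 9 lost). Hexokinase 2 (Hk2) was at 29.4, 36.6 and 35.1 CPM in NC and 72.6, 72 and 46.6 CPM in TZG (log2 fold change 0.92 ± 0.20 (SE), adjusted p = 0.026, leave-one-out maximum 0.0863 without C56, 5 of 9 lost). Phosphoglycerate kinase (Pgk1) was at 142, 153 and 319 CPM in NC and 249, 347 and 247 CPM in TZG and did not pass until C61, its highest NC library, was left out (log2 fold change 0.46 with all libraries and 0.95 without C61). C61 was also the highest NC library for lactate dehydrogenase A (Ldha) and pyruvate kinase (Pkm), at 253, 265 and 584 CPM in NC and 411, 596 and 347 CPM in TZG for Ldha and 172, 173 and 390.1 CPM in NC and 240.5, 341 and 279 CPM in TZG for Pkm. Neither the 24 nuclear genes of oxidative phosphorylation nor the 13 mitochondrially encoded genes held a call by edgeR or DESeq2, with 1 mitochondrial gene at an unadjusted p under 0.05. Of 16 NRF2 antioxidant genes 1 rose (6.25%) and 2 fell (12.5%), and of 10 mast cell genes 1 rose and 1 fell (10% each). Of 10 genes of the RANKL and M-CSF axis 1 rose (10%). Over all genes tested the shares were 5.79% higher and 4.53% lower, and in lists this short 1 call moves the share far. Of 6 epidermal genes none was called by edgeR, DESeq2 or limma-voom, none having an unadjusted p under 0.05.

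The genes that kept their fold and had the lowest log2 fold changes without C61 and G48, whether in a list or not, were led by Dact2 and Fermt1. Dact2, an inhibitor of Wnt and TGF-beta signalling, was at 22.5, 16.9 and 3.79 CPM in NC and 1.0, 0.761 and 0.894 CPM in TZG (log2 fold change -4.01 ± 0.61 (SE), adjusted p = 0.0142, leave-one-out maximum 0.0478). Fermt1, a kindlin that activates integrins in epithelia, was at 46.9, 8.76 and 5.56 CPM in NC and 2.13, 0.761 and 0.767 CPM in TZG (log2 fold change -4.06 ± 0.89 (SE), adjusted p = 0.0284, leave-one-out maximum 0.0906 without G31, 4 of 9 lost). Rab3b, a GTPase of vesicle secretion, was at 10.9, 13.1 and 7.76 CPM in NC and 1.47, 1.31 and 0.383 CPM in TZG (log2 fold change -3.32 ± 0.61 (SE), adjusted p = 0.0189, leave-one-out maximum 0.0554 without G31, 2 of 9 lost). At each of the 3 genes C61 was the lowest NC library and still lay above all TZG libraries. Clec2l, a lectin-like gene, was at 19.9, 17.4 and 9.09 CPM in NC and 3.87, 2.49 and 3.39 CPM in TZG (log2 fold change -2.25 ± 0.31 (SE), adjusted p = 0.0133, leave-one-out maximum 0.0428). The others of this set were Mmp27, Cpne5, Mlana, Hhipl2, Mamdc2 and Clic5, with log2 fold changes of -2.96, -2.78, -2.50, -2.35, -2.10 and -2.44. On the higher side the set was Ccl20, Fcnb, Oscar, Hemgn, Slc4a1, E2f8, Cd8a, Csf3r, Ahsp and Ubd. Gbx2, a homeobox gene without a read in NC, was at 6.33, 1.52 and 21.4 CPM in TZG, at least 137-fold higher against 3 reads over the group (adjusted p = 0.0345, leave-one-out maximum 0.0822 without C56, 7 of 9 lost). It is not of this set: its fold depended on G48, without which it was at least 55.4-fold higher and the call was lost (adjusted p = 0.0543).

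The AIA libraries give a further level for the same genes, and both comparisons share the NC libraries. Against NC, 2 genes were called in AIA (0.0133% of those tested), Nr1d1, at 61.5, 47.8 and 50.8 CPM in AIA (log2 fold change -1.69, adjusted p = 0.0305), and Plac8, at 49, 77.1 and 77.1 CPM in AIA (1.84, 0.0402). Plac8, a cysteine-rich protein of myeloid and lymphoid cells, was at 20.04, 16.9 and 19.7 CPM in NC and 73.3, 60.2 and 72.4 CPM in TZG (log2 fold change 1.86 ± 0.19 (SE), adjusted p = 0.0106, leave-one-out maximum 0.0426). TZG and AIA differed at no gene by edgeR (smallest adjusted p = 0.261, with 1894 genes at an unadjusted p under 0.05). Several genes called in TZG lay in AIA within or near their NC range: Il6 at 0.953, 1.36 and 0 CPM in AIA, Ptgs2 at 1.61, 1.09 and 2.14 CPM in AIA, Cyp51 at 29.2, 32.5 and 31.4 CPM in AIA and Lifr at 154, 142 and 191 CPM in AIA. Others lay in AIA between NC and TZG or near TZG, such as Top2a at 16.3, 46.8 and 66.4 CPM in AIA, Il1b at 5.72, 10.7 and 10.9 CPM in AIA and Cd8a at 3.66, 9.84 and 4.89 CPM in AIA. These examples were chosen after their values were seen, and the difference between AIA and TZG did not pass the test at any of them.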

How the data were processed

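Synovial RNA of 9 libraries was analysed. RNeasy was used for extraction and a SMARTER mRNA-Seq kit for the libraries, per the labels' protocols. The submitters' processing notes name fastp, HISAT2, StringTie 1.3.3b and edgeR 3.30.3, without roles. Nothing in the labels or file headers gives the genome build, the annotation or the counting strand. The authors deposited raw read counts per gene, FPKM per library and as means of each group, and log2 fold changes with p-values and q-values of their own comparison. The 2 deposited tables were identical and 1 was used. Of the FPKM columns 6 were not used, and those of NC served only to check the authors' mean of that group. Columns were assigned to groups by their letter, and 4 of the 9 match no sample title by number.

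Counts were fitted for all 9 libraries in edgeR 4.0.16 (R 4.3.3) with TMM factors, filterByExpr and the robust quasi-likelihood F test, with Benjamini-Hochberg adjustment over all genes tested and a threshold of 0.05. The group contrast was TZG minus NC. Levels are TMM-scaled CPM (counts scaled to library size), and the SE is the log2 fold change over the square root of F. The intervals and floors cover counting error only. The procedure was tested on simulated data. Alternatives were other scalings, filters and fold thresholds, DESeq2 1.42.0, limma-voom (limma 3.58.1), fewer libraries and each library left out. The gene lists had 1034 entries, of which 997 matched the table, 2 of them through RefSeq's table of synonyms and identifiers.

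Members, lists and tests were chosen with earlier results of these data known. Genes were named by a rule: the 6 highest and 6 lowest fold changes among called genes with at least 5 CPM and no overlap, the 10 highest and 10 lowest of those that kept their fold without C61 and G48, the 2 smallest p-values per list and direction, and a set of genes named in advance of the fit. Genes named beyond it, such as Cdk1 and Dbp, were chosen after their values were seen.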

Additional observations from a re-analysis of the deposited data

How the results depend on the processing

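The counts of 873 higher and 682 lower genes stayed within 1.5 times with RLE or upper-quartile scaling, scaling without muscle, cartilage, bone and mitochondrial genes, limma-voom, both other filters, without C61 and G48, and without C61, M8 and G48. DESeq2 called 1630 higher and 1321 lower, a fit of the NC and TZG libraries alone 526 and 237, a test against a log2 fold change of 0.5 called 178 and 52, and the 5 columns matched by number gave 0 and 0 in edgeR, with 1524 genes at an unadjusted p under 0.05. With 1 library left out the counts ranged from 150 to 821 higher and from 143 to 613 lower. The cause was not tested. The share of calls that were higher was 56.1% with all libraries, 44.8% without C56, 68.9% without G31, 68.9% with NC and TZG alone and 77.4% in the test against a fold. Among 132 named genes, 2 changed sign, neither of them called: Zbtb16, to 0.10 with the 5 matched columns, 0.066 without G48 (-0.43 to 0.066 with any 1 library left out), 0.14 without C61 and G48 and 0.14 without C61, M8 and G48, and Adipoq, to 0.022 and 0.023 in the last 2 fits. No paired analysis was possible because the replicate numbers follow accession order and pair no samples. With 3 reads at 0.183 to 0.239 CPM before TMM scaling, depth limits the genes that NC libraries hold at or near 0.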
